A study of Mus musculus with 12 samples.

Results

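The genes described here are 9 genes that write, read or remove methyl groups on DNA, out of 17576 genes in the deposited table: Dnmt1, Dnmt3a, Dnmt3b, Dnmt3l, Uhrf1, Tet1, Tet2, Tet3 and Mbd2. They were chosen by symbol, not by their values. RNA-seq was done on total RNA of C18-4 cells, an established mouse line of spermatogonial stem cell origin, with 3 libraries in each of 4 groups, 12 in all. The group 8276OV had received virus for overexpression of the long noncoding RNA lncRNA8276, and 5NC was taken as its control. The group 8276KD had received virus for inhibition of lncRNA8276, and 3NC was taken as its control. This assignment of controls rests on the order in which the design text lists the groups, and what the viruses of 3NC and 5NC carry is not spelled out. All 4 groups are of the same line, whose strain is given as IRC mouse, and no untransfected cells were analysed here. Whether the libraries of a group are separate cultures is not stated, so the p-values reflect their spread alone, which may be technical.

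In mammals, methyl groups sit mostly on the cytosine of CG dinucleotides (CpG sites). Dnmt1 copies the methylation pattern onto newly made DNA after replication, and it is brought there by Uhrf1, which recognises half-methylated sites. Dnmt3a and Dnmt3b place methylation at new sites, and Dnmt3l, which has no activity of its own, assists them in germ cells. The TET enzymes oxidise methylcytosine, a first step towards its removal by base excision repair. Mbd2 binds methylated CpG sites and belongs to a form of the NuRD repressor complex. In male germ cells, methylation is set anew in fetal prospermatogonia, with Dnmt3l required, and is then kept through the divisions of spermatogonia.

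Promoter windows of 8 of the 9 genes were found among RefSeq transcript starts on GRCm38.p6, the assembly also called mm10, in 15 windows of 300 bases that run from 250 bases before to 50 bases after a start. They are shown for Dnmt1 and Uhrf1, partners in copying methylation whose levels behaved differently below, and for Tet2 and Tet3, which differed in opposite directions between the control viruses. Capitals mark matches to any of the E2F-type words TTTCCCGC, TTTGGCGC, TTTCGCGC and TTTGCCGC on either strand, letters associated with genes of S phase. All are written 5′ to 3′ on the strand of the gene.
Dnmt1, chr9:20952574-20952873, minus strand: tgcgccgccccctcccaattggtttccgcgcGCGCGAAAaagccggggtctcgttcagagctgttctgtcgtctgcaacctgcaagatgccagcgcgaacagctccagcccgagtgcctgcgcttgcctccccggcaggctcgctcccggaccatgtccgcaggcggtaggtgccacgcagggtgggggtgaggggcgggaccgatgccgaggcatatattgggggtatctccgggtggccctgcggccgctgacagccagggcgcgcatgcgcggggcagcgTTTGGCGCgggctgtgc
Uhrf1, chr17:56304063-56304362, plus strand: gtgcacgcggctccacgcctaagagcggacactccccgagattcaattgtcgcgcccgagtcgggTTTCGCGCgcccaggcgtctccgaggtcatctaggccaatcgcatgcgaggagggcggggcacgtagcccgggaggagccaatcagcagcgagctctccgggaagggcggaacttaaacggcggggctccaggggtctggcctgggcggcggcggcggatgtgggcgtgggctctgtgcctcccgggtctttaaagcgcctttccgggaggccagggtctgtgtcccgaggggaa
Tet2, chr3:133544341-133544640, minus strand: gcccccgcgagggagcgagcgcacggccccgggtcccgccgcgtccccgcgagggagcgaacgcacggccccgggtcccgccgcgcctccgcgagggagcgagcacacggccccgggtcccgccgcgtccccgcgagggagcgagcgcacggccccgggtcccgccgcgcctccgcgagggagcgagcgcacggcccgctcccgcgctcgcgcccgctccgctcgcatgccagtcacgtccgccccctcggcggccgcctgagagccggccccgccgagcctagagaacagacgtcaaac
Tet3, chr6:83441629-83441928, minus strand: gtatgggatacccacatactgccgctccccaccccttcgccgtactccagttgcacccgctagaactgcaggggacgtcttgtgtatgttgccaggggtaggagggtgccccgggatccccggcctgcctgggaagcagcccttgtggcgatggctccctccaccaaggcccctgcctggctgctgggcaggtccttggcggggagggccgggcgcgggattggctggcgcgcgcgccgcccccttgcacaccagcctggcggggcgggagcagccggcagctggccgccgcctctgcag
The Dnmt1 window, 1 of 3 RefSeq windows of that gene, held 2 matches, TTTGGCGC and, read on the other strand, TTTCGCGC. The Uhrf1 window, 1 of 2, held TTTCGCGC. None of the other 13 windows held a word. Such a word was found in 2.265% of all 32851 windows and in 2.605% of genes. Each word holds a CpG site itself, and these shares were not matched for CpG content. CpG sites numbered 33 in the Dnmt1 window, 33 in the Uhrf1 window, 57 in the Tet2 window and 22 in the Tet3 window, against a median of 7 over all windows (quartiles 3 and 20). The Dnmt1 windows not shown held 2 and 12 CpG sites, and the Uhrf1 window not shown held 12. By the RefSeq annotation of the same assembly, Dnmt1 spans chromosome 9, 20907206 to 20959888, and Uhrf1 chromosome 17, 56303337 to 56323486, so both windows shown lie inside the annotated gene, at the start of a further transcript. Tet2 spans chromosome 3, 133463677 to 133545136, and Tet3 chromosome 6, 83362373 to 83457208, and their windows also lie inside the gene. A match describes the letters of the window and shows no binding.

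Depth, estimated from the smallest steps between values, was 13.26 M to 15.04 M fragments per library, and 10929 to 11165 genes reached a value of 1. Values are FPKM, fragments scaled by transcript length and library size, and were compared as log2(FPKM + 1), a scale that understates the changes of low genes. Pearson's r over tested genes was 0.993 to 0.998 between libraries of a group and 0.951 to 0.988 between groups. Germ cell identity was weak by its markers: 12 of 16 spermatogonial markers stayed below 1 in all 12 libraries, with Ddx4 and Dazl at 0.05 or less, while Uchl1 reached 73.0 to 139.25 and Etv5 2.26 to 7.89. The summed level of these markers was 80.94 to 92.1 in 8276OV against 98.33 to 102.02 in 5NC, and 128.1 to 148.88 in 8276KD against 87.95 to 97.04 in 3NC. Uchl1 carried most of this sum, and in 8276KD it rose while Etv5, at 3.81 to 4.59 in 8276KD against 7.72 to 7.89 in 3NC, and Itga6 fell. In 5NC Etv5 was at 2.7 to 3.52, below 8276KD, whereas Itga6 was at 4.31 to 4.74, above its 3.22 to 4.24 in 8276KD. Of the Sertoli markers, Sox9 and Amh were at or near 0, but Wt1 was at 49.0 to 62.8, and the sum of 7 markers was 53.7 to 56.02 in 8276OV, 58.98 to 60.56 in 5NC, 63.75 to 68.67 in 8276KD and 57.37 to 59.91 in 3NC. Wt1 carried this sum, and it rose in 8276KD against 3NC while the other 2 tested, Gata4 and Rhox5, fell. Rhox5 was not lower in 8276KD (1.07 ± 0.410) than in 5NC (0.913 ± 0.228), whereas Gata4 was (3.74 ± 0.684 against 6.23 ± 0.506; SD, n = 3 each). Sums of 6 peritubular myoid markers were 66.45 to 76.43, 83.41 to 88.22, 67.44 to 78.64 and 77.53 to 82.0 in 8276OV, 5NC, 8276KD and 3NC. Tagln made up most of the sum, with Myh11 and Actg2 at 0.08 or less. Acta2 varied more between groups, at 12.5 ± 1.48 in 8276OV and 21.2 ± 1.80 in 5NC, and 8.71 ± 1.26 in 8276KD and 8.52 ± 0.509 in 3NC (SD, n = 3 each). Tagln was at 52.0 ± 3.35, 55.4 ± 2.11, 47.2 ± 5.16 and 54.5 ± 2.10 in the same order. The Leydig sum was 2.03 or less and the endothelial sum 1.15 or less in all libraries, and in the same order of groups the macrophage sum was 1.58 to 2.11, 2.08 to 2.38, 2.66 to 3.57 and 4.14 to 5.67, nearly all Cd68, with Ptprc at 0.03 or less. The part of these marker differences in the results below was not tested. In bulk RNA, fewer cells of a type and less RNA per cell cannot be told apart. The level of lncRNA8276 was not analysed here, so the manipulation itself was not checked.

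**Figure D1:**
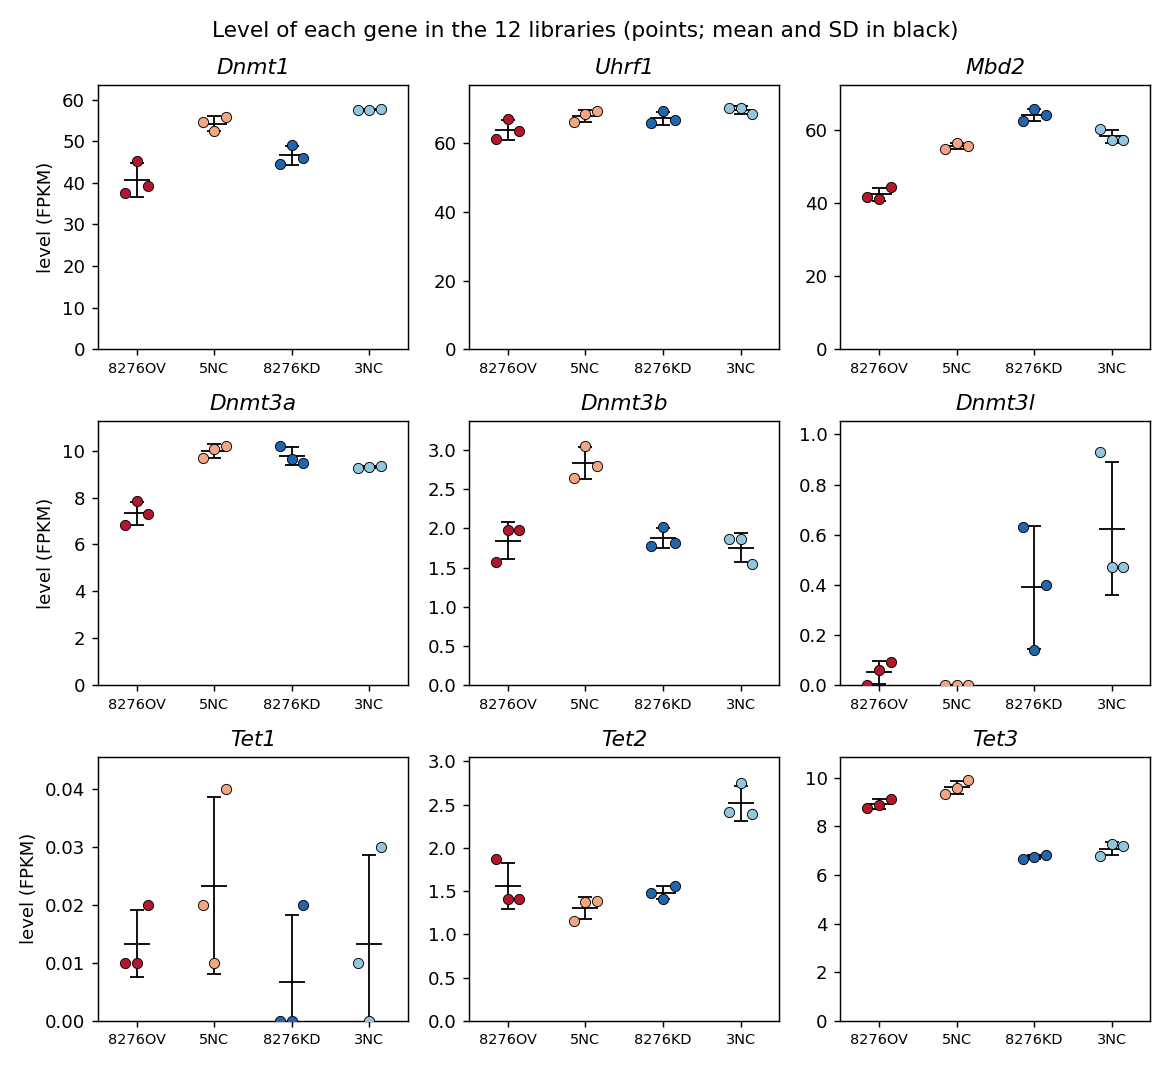
Level of each of the 9 genes in FPKM (vertical axes, linear, from 0, a scale of its own in each panel) in the 3 libraries of each group (horizontal axes); points are libraries, black marks the mean and SD. Dnmt1 and Mbd2 were lowest in 8276OV, Dnmt3b was highest in 5NC and Tet2 in 3NC, and Tet1 stayed at 0.04 or less.

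The 9 genes spanned a wide range of levels. Averaged over the 12 libraries, Uhrf1 (87.5th percentile of the 11360 tested genes), Mbd2 (84.6th) and Dnmt1 (82.8th) were highly expressed. Dnmt3a was at the 37.7th percentile and Tet3 at the 34.3rd. Dnmt3b (8.95th percentile) and Tet2 (6.86th) were low but passed the filter, which asked for 1 FPKM or more in 3 or more libraries. Dnmt3l and Tet1 stayed below 1 everywhere and did not enter the tests, so 7 of the 9 genes were tested. In each library Dnmt1 was thus the main DNA methyltransferase by level and Tet3 the main TET gene.

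Dnmt1, the maintenance methyltransferase, was lower under both manipulations. It had 37.65, 45.3 and 39.12 FPKM in the 8276OV libraries, against 54.56, 52.37 and 55.75 in 5NC. All 3 overexpression libraries lay below all 3 controls, and replicate 2 was the highest of them. The difference was -0.41 on the log2 scale (limma standard error 0.0618; adjusted p = 4.61e-05). Under knockdown Dnmt1 had 44.6, 49.18 and 46.05 FPKM in 8276KD, against 57.49, 57.52 and 57.75 in 3NC. Again the groups did not overlap, and the 3NC libraries were close to each other (SD 0.142, n = 3). The difference was -0.30 (standard error 0.0618; adjusted p = 0.00185).

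These falls of Dnmt1 behaved differently under a correction for GC content, the share of G and C in a gene's longest transcript. In 8276OV against 5NC the fold change of all genes ran with GC content (Spearman's rho = -0.788 across 11248 genes, which are not independent replicates), whereas rho was -0.221 in 8276KD against 3NC. Dnmt1 has a GC content of 54.0%, and 1130 genes within 1 point of it had a median difference of -0.37 in 8276OV, close to that of Dnmt1. After the GC trend of each library was removed, Dnmt1 differed by -0.053 in 8276OV and was no longer called, and by -0.26 in 8276KD, where it remained called. Among the genes of like GC content it stood at the 43.3rd percentile in the overexpression arm and at the 11.3rd in the knockdown arm. Against the other control virus Dnmt1 was also lower. It differed between 8276KD and 5NC by -0.21 (adjusted p = 0.00944; 55.3% of all genes were called) and between 8276OV and 3NC by -0.50 (adjusted p = 7.45e-06; 75.2% called), or -0.20 after GC correction, still called. Without 8276OV replicate 2, the library with the weakest GC trend of its group, the difference from 5NC was -0.49.

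Uhrf1, which guides Dnmt1 to newly replicated DNA, was not called in either arm. It had 61.21, 67.06 and 63.75 FPKM in 8276OV, against 66.11, 68.52 and 69.49 in 5NC. In 8276KD it had 65.89, 69.53 and 66.79, against 70.46, 70.34 and 68.54 in 3NC. Groups overlapped in both cases. The difference was -0.088 under overexpression (standard error 0.0439; adjusted p = 0.0858) and -0.050 under knockdown (adjusted p = 0.395), and neither was called. The overexpression value depended on scaling and control: it was 0.0033 with median-of-ratios factors, and it was called lower with library sums made equal (-0.13), against 3NC (-0.12) and against both controls together (-0.11). With a GC content of 53.7%, close to that of Dnmt1, Uhrf1 was higher in 8276OV by 0.25 after GC correction, a call in the opposite direction to the value as deposited. Without 8276OV replicate 2 it was called lower, at -0.12 (adjusted p = 0.0245).

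Set within each library, the level of Dnmt1 relative to Uhrf1 was lower in each manipulation than in its control; this ratio and the shares below were chosen after the values were seen and carry no test. Dnmt1 over Uhrf1 was 0.635 ± 0.0353 in 8276OV and 0.797 ± 0.0308 in 5NC (SD, n = 3 each). It was 0.691 ± 0.0153 in 8276KD and 0.825 ± 0.0149 in 3NC (SD, n = 3 each). The ranges of each manipulation and its control did not overlap: 0.614 to 0.676 against 0.764 to 0.825, and 0.677 to 0.707 against 0.816 to 0.843. The 2 genes differ in GC content by less than 1 point.

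Dnmt3a, the more abundant of the de novo enzymes, was lower under overexpression and was not called under knockdown. It had 6.84, 7.84 and 7.3 FPKM in 8276OV, against 9.67, 10.08 and 10.21 in 5NC. The highest 8276OV library lay below the lowest 5NC library. The difference was -0.40 (standard error 0.0566; adjusted p = 2.57e-05), and it remained called after GC correction (-0.18) and against 3NC (-0.31). Under knockdown the values were 10.2, 9.64 and 9.47 FPKM in 8276KD, against 9.27, 9.29 and 9.34 in 3NC. These groups did not overlap either, but the difference of 0.064 was not called (adjusted p = 0.396). The effects of the manipulations differed by -0.47 (overexpression minus knockdown; standard error 0.0800; adjusted p = 2.94e-04; 60.6% of all genes were called), and by -0.26 after GC correction, again called. Among 1138 genes within 1 point of its GC content of 51.9%, Dnmt3a stood at the 24.0th percentile of change in 8276OV.

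Dnmt3b, the other de novo enzyme, stood apart in 5NC. It had 1.57, 1.98 and 1.98 FPKM in 8276OV, against 2.65, 3.05 and 2.8 in 5NC, a difference of -0.43 (standard error 0.0823; adjusted p = 3.16e-04). In 8276KD it had 1.78, 2.02 and 1.82, against 1.87, 1.86 and 1.54 in 3NC, a difference of 0.061 (adjusted p = 0.584). All 3 5NC libraries thus lay above the other 9, and those 9 overlapped. The 5NC level exceeded that of 3NC by 0.48 (adjusted p = 2.56e-04; 0.42 after GC correction). The fall in 8276OV was not called after GC correction (-0.13) or against 3NC (0.043), and against 5NC the knockdown group was called lower too (-0.42). These values rest on about 93.6 to 196 fragments per library by the depth estimate. As a share of the summed level of Dnmt3a and Dnmt3b, Dnmt3b made up 20.1 ± 1.34% in 8276OV and 22.1 ± 0.989% in 5NC, and 16.1 ± 1.23% in 8276KD and 15.9 ± 1.49% in 3NC (SD, n = 3 each).

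Dnmt3l, the germ cell cofactor of the de novo enzymes, was near the limit of detection and unequal between groups. It was listed at 0, 0.06 and 0.09 FPKM in 8276OV and at 0 in each 5NC library. It had 0.63, 0.14 and 0.4 FPKM in 8276KD, against 0.93, 0.47 and 0.47 in 3NC. The highest of these values corresponds to about 24.2 fragments. All 6 libraries of 8276KD and 3NC were above all 6 of 8276OV and 5NC, while 8276KD and 3NC overlapped. No fold is given against 5NC because a listed 0 can be a rounded or failed estimate.

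Among the TET genes, Tet1 was listed between 0 and 0.04 FPKM in every library, at most about 8.44 fragments, so differences between groups were not detectable at this depth. Tet2 was highest in 3NC. It had 1.87, 1.41 and 1.41 FPKM in 8276OV, against 1.16, 1.37 and 1.39 in 5NC. It had 1.48, 1.41 and 1.56 in 8276KD, against 2.41, 2.75 and 2.39 in 3NC. The 3NC libraries lay above the other 9, and replicate 1 of 8276OV was the highest of those 9. Tet2 fell by 0.50 in 8276KD against 3NC (standard error 0.0841; adjusted p = 4.18e-04; -0.53 after GC correction). Against 5NC it was not called in 8276KD (0.11, adjusted p = 0.296). In 8276OV the difference of 0.15 from 5NC was not called (adjusted p = 0.124), and the sign was opposite against 3NC (-0.46, called). It was called higher with quantile normalization (0.31) and median-of-ratios factors (0.20), and was 0.065 without 8276OV replicate 1.

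Tet3, the most abundant TET gene, was split by arm, with 8276OV and 5NC on one side and 8276KD and 3NC on the other. It had 8.77, 8.86 and 9.13 FPKM in 8276OV, against 9.35, 9.57 and 9.9 in 5NC. It had 6.65, 6.72 and 6.82 in 8276KD, against 6.79, 7.27 and 7.19 in 3NC. All 6 libraries of 8276OV and 5NC were above all 6 of 8276KD and 3NC. Within the arms the differences were -0.096 (standard error 0.0510; adjusted p = 0.102) and -0.064 (adjusted p = 0.342), neither called. The sign in 8276OV was positive with quantile normalization (0.050, not called) and after GC correction (0.23, called), whereas with library sums made equal Tet3 was called lower (-0.14). Between 5NC and 3NC it differed by 0.39 (adjusted p = 2.16e-05), and between 8276OV and 8276KD by 0.36 (adjusted p = 3.63e-05). Tet2 made up 14.9 ± 2.33% of the summed TET level in 8276OV and 11.9 ± 0.802% in 5NC, and 18.04 ± 0.630% in 8276KD and 26.2 ± 1.29% in 3NC (SD, n = 3 each).

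**Figure D2:**
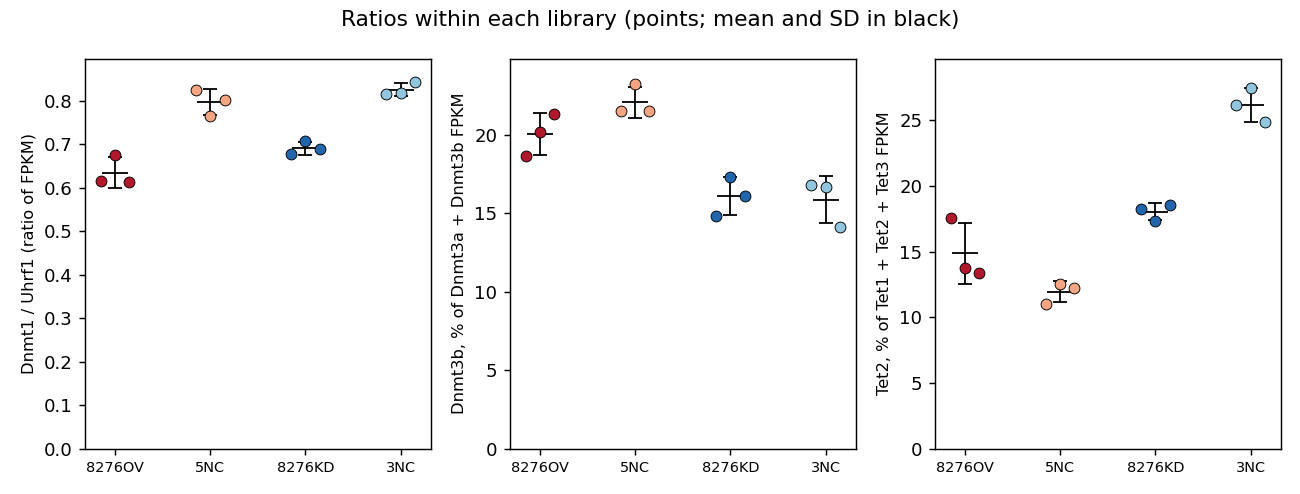
Ratios of levels within each library by group (points are libraries, black marks the mean and SD of 3): Dnmt1 over Uhrf1 (left), Dnmt3b as a percentage of Dnmt3a plus Dnmt3b (middle) and Tet2 as a percentage of the 3 TET genes (right), on linear axes from 0. Dnmt1 over Uhrf1 was 0.614 to 0.676 in 8276OV against 0.764 to 0.825 in 5NC, and the Tet2 share was highest in 3NC.

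Mbd2, the methyl-CpG binding protein of NuRD, moved in opposite directions in the manipulations. It had 41.63, 41.13 and 44.31 FPKM in 8276OV, against 54.86, 56.37 and 55.58 in 5NC. The groups were widely separated, with a difference of -0.39 (standard error 0.0436; adjusted p = 4.23e-06). It had 62.39, 65.65 and 63.94 FPKM in 8276KD, against 60.34, 57.2 and 57.07 in 3NC. The lowest knockdown library lay above the highest control library, with a difference of 0.13 (adjusted p = 0.0259). Mbd2 is the most GC-rich of the 9 genes (56.5%). The median difference of 1005 genes within 1 point of it was -0.53 in 8276OV, below that of Mbd2, and after GC correction the overexpression value was 0.13, of opposite sign and not called. The rise in 8276KD was 0.21 after GC correction and 0.20 against 5NC, both called, but it was lost without 3NC replicate 2 or 3 or 8276KD replicate 2 or 3 (0.12, 0.12, 0.12 and 0.14; adjusted p = 0.0575 to 0.0929), with quantile normalization (0.11) and in a fit of 8276KD and 3NC alone (adjusted p = 0.0501).

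Counted together, 4 of the 7 tested genes fell in 8276OV against 5NC (Dnmt1, Dnmt3a, Dnmt3b and Mbd2) and the other 3 were not called. Over all tested genes 74.4% were called in this comparison, 30.3% higher and 44.1% lower, so the count is not above the background. With quantile normalization 4428 genes were called higher and 3997 lower, against 3447 and 5005 as deposited, and the median of all genes was 0.029 in place of -0.088. Relative to that median the 4 genes that fell lay between -0.39 and -0.27 with quantile normalization and between -0.34 and -0.30 as deposited. The median over the 7 genes was -0.39, against -0.088 over all genes. After GC correction Dnmt3a remained lower, Uhrf1 and Tet3 were called higher, and the median was -0.023 (background 54.7% called). In 8276KD against 3NC, 3 of the 7 were called, with Mbd2 higher and Dnmt1 and Tet2 lower, where 39.4% of all genes were called (20.0% higher and 19.5% lower). The median was -0.050 against -0.0048 over all genes, and after GC correction the same 3 genes were called, with 48.3% of all genes. Tet2 was lower than all but 3.49% of tested genes in this comparison and Dnmt1 than all but 10.6%. Groups did not overlap for 6 of the 7 genes in 8276OV against 5NC (77.6% of all genes) and for 4 of the 7 in 8276KD against 3NC (49.6%).

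**Figure D3:**
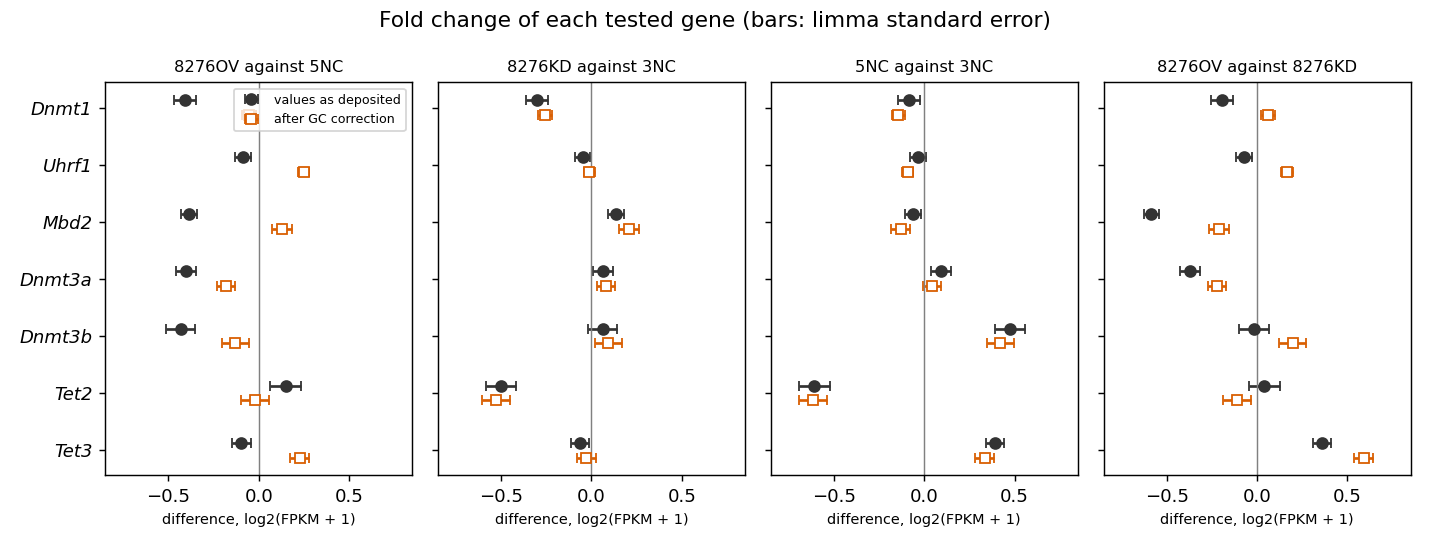
Differences of the 7 tested genes on the log2(FPKM + 1) scale (horizontal axis) in 4 comparisons of 3 libraries with 3, as deposited (filled circles) and after GC correction (open squares), with limma standard errors as bars. In 8276OV against 5NC Dnmt1 was at -0.41 as deposited and -0.053 after correction, and Mbd2 at -0.39 and 0.13, while in 8276KD against 3NC Dnmt1 was at -0.30 and -0.26.

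**Figure D4:**
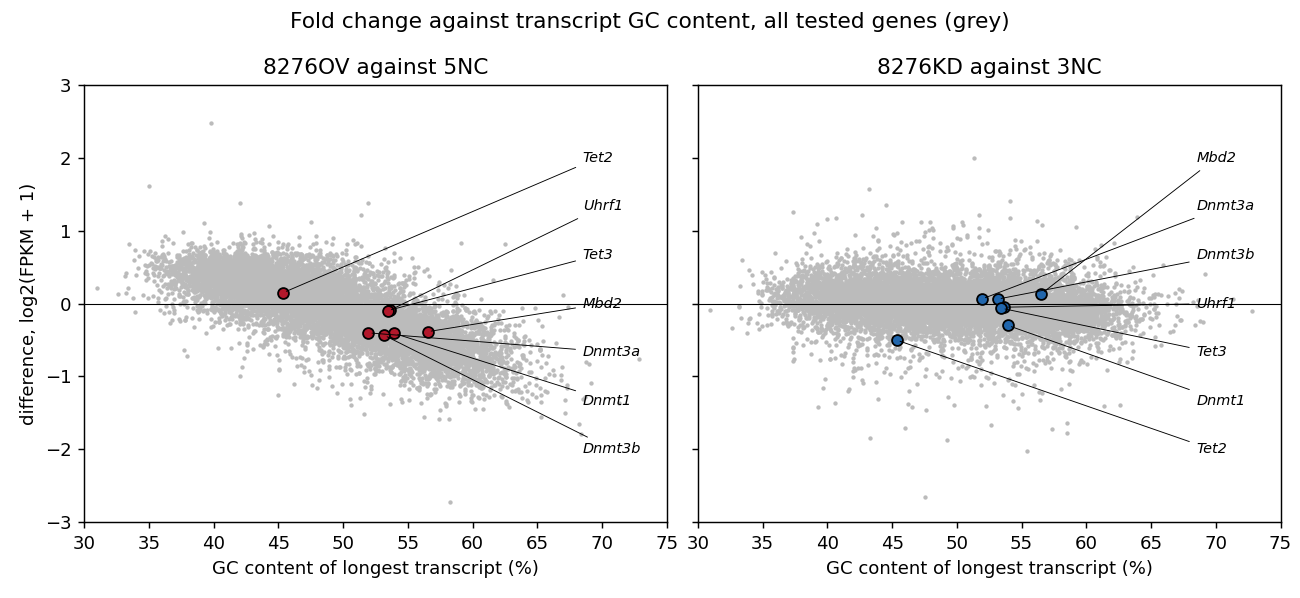
Difference on the log2(FPKM + 1) scale (vertical axis) against GC content of the longest transcript in percent (horizontal axis) for all tested genes with a GC value (grey) and the 7 named genes (coloured), in 8276OV against 5NC (left) and 8276KD against 3NC (right). The cloud slopes downward on the left (rho = -0.788) and little on the right (rho = -0.221); Tet2 is the low-GC gene of the set (45.4%).

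The GC slope of a library, the change of log2(FPKM + 1) relative to the gene's mean per 10 points of GC content, was -0.46, -0.24 and -0.35 in the 8276OV libraries, and 0.20, 0.15 and 0.18 in 5NC. It was -0.041, 0.18 and -0.0017 in 8276KD, and 0.13, 0.10 and 0.15 in 3NC. The correction removes any change that runs with GC content, whatever its origin, so values with and without it are both given.

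The control viruses themselves differed in these genes. Of the 7 tested, Dnmt3b (0.48) and Tet3 (0.39) were higher in 5NC than in 3NC and Tet2 was lower (-0.61; standard error 0.0841; adjusted p = 3.75e-05), where 56.5% of all genes were called (30.6% higher and 25.9% lower). Groups did not overlap for 6 of the 7, against 69.5% of all genes. Dnmt1 and Mbd2 were at -0.086 (adjusted p = 0.255) and -0.064 (adjusted p = 0.225), and were called lower in 5NC after GC correction (-0.14 and -0.13), when 64.2% of all genes were called. Uhrf1 was at -0.036 (adjusted p = 0.504), and was likewise called lower after GC correction (-0.093), and Dnmt3a at 0.093 (adjusted p = 0.179). The differences between 5NC and 3NC in Tet2 and Tet3 (-0.61 and 0.39) were larger in size than their differences within either arm.

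In order of mean level, Dnmt1 ran from 3NC and 5NC through 8276KD to 8276OV, with both lower steps called. All 5NC libraries lay below those of 3NC, but that step was not called (limma adjusted p = 0.255). It was called in a fit of 5NC and 3NC alone (limma adjusted p = 0.0435) and after GC correction (-0.14). For Mbd2 the order was 8276KD, 3NC, 5NC and 8276OV, with the middle pair not distinguished. This order did not hold after GC correction. Mbd2 in 8276OV was then at -0.0021 against 3NC and 0.13 against 5NC, neither called, and 5NC was called below 3NC (-0.13). For Dnmt3a, 5NC, 8276KD and 3NC were not distinguished from their neighbours, and the step down to 8276OV was called. Set directly against 8276KD, the 8276OV libraries were lower in Dnmt1 (-0.19, adjusted p = 0.0127), Dnmt3a (-0.37) and Mbd2 (-0.58) and higher in Tet3 (0.36), with 68.2% of all genes called. The Dnmt1 call in that comparison was lost without 8276OV replicate 1 or 3 (-0.14 and -0.17; adjusted p = 0.0624 and 0.0527), with median-of-ratios factors (-0.14), in a fit of the compared groups alone (adjusted p = 0.0560) and after GC correction (0.061). For Uhrf1 no neighbours in the order were distinguished as deposited. After GC correction 8276OV was called higher in Uhrf1 than 5NC (0.25), 8276KD (0.17) and 3NC (0.16). The summed level of Dnmt1, Dnmt3a and Dnmt3b over that of the 3 TET genes was 4.76 ± 0.540 in 8276OV and 6.13 ± 0.193 in 5NC, and 7.09 ± 0.347 in 8276KD and 7.15 ± 0.299 in 3NC (SD, n = 3 each).

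The pattern of each tested gene over the 12 libraries was set against all other tested genes by the root mean square difference of log2 values centred on the gene's own mean. The genes most like Dnmt1 were Supt5 (0.0398) and Nr2c2ap (0.0443), against a spread of 0.204 of Dnmt1 about its own mean. Those most like Dnmt3a were Rnf216 (0.0429) and Zdhhc5 (0.0467), and those most like Dnmt3b were Rnf157 (0.0634) and Hs1bp3 (0.0654). For Uhrf1 they were Cd2bp2 (0.0343) and Sik2 (0.0405), for Tet2 Snx27 (0.0829) and Sestd1 (0.0831), for Tet3 Eif1 (0.0434) and Dlc1 (0.0460), and for Mbd2 Ywhag (0.0485) and Cfl1 (0.0517). The spread about the gene's own mean was 0.166 for Dnmt3a, 0.207 for Dnmt3b, 0.0574 for Uhrf1, 0.246 for Tet2, 0.194 for Tet3 and 0.220 for Mbd2. Uhrf1 varied least, so a small difference from another gene says less for it than for the others. Among the 7 genes themselves the closest pair was Dnmt3a and Mbd2 (0.113) and the most distant Dnmt3b and Tet2 (0.404).

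Other proteins that read methylated DNA were measured in a list of 8 genes. In 8276OV against 5NC, 1 rose and 4 fell, where 74.4% of all genes were called. The median was -0.093 beside -0.088 over all genes. Mbd3, the NuRD subunit related to Mbd2, was at 42.1 ± 6.92 FPKM in 8276OV and 90.8 ± 3.06 in 5NC (SD, n = 3 each; -1.10; -0.32 after GC correction, still called). Zbtb33, which encodes the methyl-CpG binding factor Kaiso, rose by 0.36, but differed by -0.0025 after GC correction. In 8276KD against 3NC, 2 of the 8 fell, with a median of -0.13, where 39.4% of all genes were called. Mbd1 was at 50.4 ± 1.89 FPKM in 8276KD and 64.9 ± 1.04 in 3NC (SD, n = 3 each; -0.36; -0.35 after GC correction).

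The NuRD complex, which joins histone deacetylases and a remodelling ATPase to Mbd2 or Mbd3, had more members lower than higher in 8276OV. Of its 13 genes, 1 rose and 9 fell against 5NC, with a median of -0.37, and after GC correction 2 rose and 8 fell, the median being -0.16. Over all genes 74.4% were called in this comparison and 44.1% were lower, and 54.7% were called after GC correction. Cdk2ap1, a small subunit, was at 82.7 ± 4.40 FPKM in 8276OV and 140.7 ± 0.752 in 5NC (-0.76), and at 125.5 ± 6.95 in 8276KD and 106.0 ± 4.35 in 3NC (0.24; SD, n = 3 each). The fall and the rise remained called after GC correction (-0.23 and 0.32). Rbbp7, a histone-binding subunit, rose by 0.27 in 8276OV (0.065 after GC correction, not called). In 8276KD against 3NC, 4 of the 13 rose and Mta1 fell (-0.32), with a median of 0.068, where 39.4% of all genes were called.

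Partners and regulators of the methyltransferases were mixed: of 18 tested genes, 5 rose and 6 fell in 8276OV, and 2 rose and 2 fell in 8276KD, where 74.4% and 39.4% of all genes were called. Pclaf, a PCNA-bound protein that Uhrf1 ubiquitinates to help load Dnmt1, rose under both manipulations. It was at 124.3 ± 4.14 FPKM in 8276OV and 87.0 ± 2.84 in 5NC (0.51), and at 109.4 ± 6.01 in 8276KD and 94.8 ± 2.08 in 3NC (0.20; SD, n = 3 each), and both remained called after GC correction. The histone H3 lysine methyltransferase genes Ehmt2 and Setdb1 had the largest falls: Ehmt2 by 0.78 in 8276OV (-0.072 after GC correction, not called) and Setdb1 by 0.22 in 8276KD. Genes of S phase, when Dnmt1 and Uhrf1 act, moved both ways in 8276OV, with 13 rising and 12 falling of 30. In 8276KD more fell (11) than rose (7). Over all genes 30.3% were called higher and 44.1% lower in 8276OV, and 20.0% and 19.5% in 8276KD. After GC correction 13 rose and 7 fell in 8276OV, and 7 rose and 15 fell in 8276KD. The medians of this list were then 0.064 and -0.10, with 54.7% and 48.3% of all genes called. Gmnn, the inhibitor of replication licensing, rose by 0.51 and Mcm2, a subunit of the replicative helicase, fell by 0.62 in 8276OV. Rrm2, a subunit of ribonucleotide reductase, rose by 0.39 and Cdc6, a licensing factor, fell by 0.40 in 8276KD.

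On the demethylation side, 5 of 10 tested partners and regulators of the TET enzymes rose and 3 fell in 8276OV, and 2 rose and 2 fell in 8276KD. The shares called over all genes were 74.4% and 39.4%. The isocitrate dehydrogenase genes, whose products make the cosubstrate of the TET enzymes, moved apart in 8276OV, with the cytosolic Idh1 higher by 0.54 and the mitochondrial Idh2 lower by 0.64, both also called after GC correction (0.30 and -0.18). In 8276KD, Ogt, a glycosyltransferase that binds TET proteins, fell by 0.36. Of 11 base excision repair genes, 1 rose and 7 fell in 8276OV, a share near the 74.4% called over all genes, with a median of -0.22. After GC correction 3 rose and 2 fell, where 54.7% of all genes were called, and the median was -0.023. Polb, the repair polymerase, was the gene that rose (0.40), and the scaffold gene Xrcc1 fell furthest (-0.75; -0.10 after GC correction, not called). In 8276KD, Smug1, a uracil glycosylase gene, rose by 0.35 and Gadd45a fell by 0.37, to 39.0 ± 2.76 FPKM in 8276KD, against 50.7 ± 2.80 in 3NC (SD, n = 3 each). With 2 rising and 3 falling in all, the knockdown median of this list was -0.054.

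The methyl donor cycle supplies S-adenosylmethionine to all these methyltransferases. Mat2a, which makes it, was at 100.003 ± 2.42 FPKM in 8276KD and 71.9 ± 0.593 in 3NC (SD, n = 3 each), a rise of 0.47 (standard error 0.0398; adjusted p = 1.41e-06; 0.42 after GC correction). Ahcyl1, a relative of the enzyme that clears the used donor, fell by 0.24. In 8276OV, Shmt2, a mitochondrial serine enzyme, fell by 0.86 (-0.30 after GC correction). Of 13 tested genes, 4 rose and 4 fell in 8276OV and 3 rose and 3 fell in 8276KD. Over all genes 74.4% and 39.4% were called in these comparisons. Among the genes named for these lists, 5 lay on the other side of 5NC in 8276KD. Mbd1 (50.4 FPKM in 8276KD against 41.4 in 5NC), Ogt (20.04 against 17.3), Setdb1 (4.35 against 4.09) and Ahcyl1 (71.1 against 67.3) fell against 3NC but lay above 5NC. Cdk2ap1 (125.5 against 140.7) rose against 3NC but lay below 5NC.

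**Figure D5:**
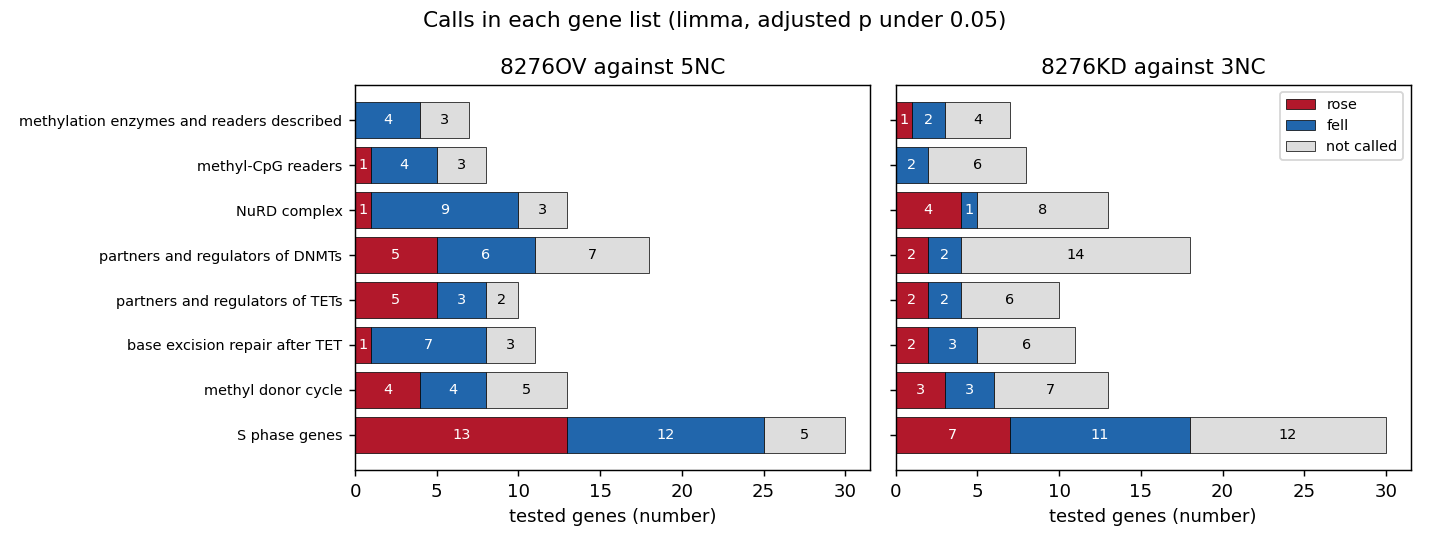
Number of tested genes (horizontal axis) that rose (red), fell (blue) or were not called (grey) at an adjusted p of 0.05 in each gene list, in 8276OV against 5NC (left) and 8276KD against 3NC (right). In the left panel the NuRD list had 9 of 13 lower; over all genes 44.1% were lower there.

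Finally, germline genes known to be held silent by promoter methylation in somatic cells were listed at low values. Of 18 in the table, 15 stayed below 1 FPKM in all 12 libraries. Tex19.1, a germ cell gene that responds to loss of methylation, was the highest of the other 3, at 60.6 ± 4.43 FPKM in 8276OV and 70.1 ± 5.42 in 5NC (-0.21; adjusted p = 0.0153; 0.057 after GC correction, not called), and at 115.3 ± 9.74 in 8276KD and 101.4 ± 1.46 in 3NC (0.18; adjusted p = 0.0554; 0.21 after GC correction, called; SD, n = 3 each). Piwil2, a PIWI protein gene of the piRNA pathway, was at 2.84 ± 0.0721 FPKM in 8276OV and 5.39 ± 0.290 in 5NC (-0.73), and at 3.01 ± 0.490 in 8276KD and 1.41 ± 0.155 in 3NC (0.73; SD, n = 3 each). Dpep3, a testis peptidase gene, was at 0.443 ± 0.0306 in 8276OV and 1.35 ± 0.207 in 5NC (-0.70), and at 2.09 ± 0.214 in 8276KD and 0.907 ± 0.118 in 3NC (0.69; SD, n = 3 each). Piwil2 and Dpep3 remained called in both comparisons after GC correction, at -0.70 and -0.24 in 8276OV and 0.73 and 0.76 in 8276KD. The controls differed as well, with Piwil2 higher in 5NC than in 3NC by 1.41 and Dpep3 by 0.30, and Tex19.1 lower (-0.53; adjusted p = 2.46e-05; -0.58 after GC correction), so that Piwil2 in 8276OV lay above 3NC and in 8276KD below 5NC. DNA methylation itself was not measured in these libraries.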

How the data were processed

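RNA-seq values of 12 libraries were taken as the authors deposited them, as 1 table of 17576 genes with a value per library. No label or header names the unit; the deposited values were read as FPKM from their sums and steps, and TPM could not be told apart from it. Per the submitters' processing notes the reads were placed on mm10; the aligner, quantifier and annotation are not stated in those notes or labels. Depth was estimated from the smallest steps between values and is approximate, as are the fragment numbers drawn from it. The best value within a preset range was taken, assuming FPKM and the longest transcript of each gene. Its fit score was 0.185 to 0.262 per library, where a perfect fit would give 1. The values are not counts, so no count test was used.

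Genes with at least 1 in at least 3 libraries (11360) were tested on log2(FPKM + 1) in limma 3.58.1 (R 4.3.3), with a mean per group over all 12 libraries and eBayes trend and robust set to TRUE. P-values are two-sided and Benjamini-Hochberg adjusted over all tested genes, threshold 0.05; called means past it. Differences carry limma standard errors and levels carry SDs. An exact permutation test of 3 against 3 cannot go below 0.1. For GC correction, a natural spline (5 degrees of freedom) was fitted in each library to the GC share of each gene's longest transcript in GENCODE M21 and removed (11248 of the tested genes, 99.0%). No label pairs the libraries by replicate number, and the main fit did not pair them. The procedure was tested on simulated data with independent normal noise for each gene. That simulation held no GC trend and no structure shared within a library, so it cannot show how the tests behave under them.

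The 9 genes, the gene lists and the promoter words were chosen with earlier results of these data known. Named beside the 9 genes were, in each list, the called genes with the largest rise and fall in either arm, and the 2 genes with the most similar pattern to each tested gene; Uchl1, Etv5, Wt1, Tagln, Cd68, Tex19.1 and Dpep3, and other genes named outside this rule, were named after their values were seen. Of the genes this rule named, 2 are not reported here. Alternatives covered the pseudocount, the filter, scaling, the control group, GC content, the fit and leaving out each library. Promoter sequences are those of RefSeq on GRCm38.p6.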

Additional observations from a re-analysis of the deposited data

Results flagged for a closer look

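For 4 of the 9 genes the effect of overexpression (8276OV minus 5NC) differed from that of knockdown (8276KD minus 3NC) in a test of the difference itself, which called 60.6% of all tested genes. For Mbd2 the effects were -0.39 and 0.13, a difference of -0.52 (standard error 0.0617; limma adjusted p = 1.94e-05), but after GC correction the difference was -0.079 and not called. For Dnmt3a they were -0.40 and 0.064, a difference of -0.47 (standard error 0.0800; limma adjusted p = 2.94e-04), called after GC correction at -0.26. For Dnmt3b they were -0.43 and 0.061, a difference of -0.49 (standard error 0.116; limma adjusted p = 0.00259), not called after GC correction at -0.22. For Tet2 they were 0.15 and -0.50, a difference of 0.65 (standard error 0.119; limma adjusted p = 4.64e-04), called after GC correction at 0.51. Each difference uses both controls, and 5NC and 3NC themselves differed in Dnmt3b (0.48) and Tet2 (-0.61).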

How the results depend on the processing

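For the 7 tested genes in 5 comparisons, 370 values under other settings kept direction and side of the threshold, 13 lost the call, 16 gained one and 46 changed sign; most of the sign changes came with GC correction or the other control. With GC correction the sign changed in 8276OV against 5NC for Mbd2 (0.13), Tet2 (-0.023), Tet3 (0.23) and Uhrf1 (0.25), in 8276OV against 8276KD for Dnmt1 (0.061), Dnmt3b (0.20), Tet2 (-0.11) and Uhrf1 (0.17), and in the difference of effects for Dnmt1 (0.20), Tet3 (0.25) and Uhrf1 (0.26). It lost the overexpression calls of Dnmt1 and Dnmt3b. Against the other control the sign changed in 8276OV for Dnmt3b (0.043; 0.29 with GC correction), Tet2 (-0.46; -0.64) and Tet3 (0.30; 0.56), and for Uhrf1 with GC correction (0.16). In 8276KD it changed for Dnmt3a (-0.029), Dnmt3b (-0.42; -0.33 with GC correction) and Tet2 (0.11; 0.090), and for Uhrf1 with GC correction (0.082). With both controls together it changed for Dnmt3b in 8276KD (-0.18) and for Tet2 (-0.16) and Tet3 (0.10) in 8276OV. Scaling changed the sign of values that were not called: with median-of-ratios factors Uhrf1 in 8276OV (0.0033), Dnmt3b in 8276OV against 8276KD (0.021), and Tet3 (0.047) and Uhrf1 (0.049) in the difference of effects; with quantile normalization Tet3 in 8276OV (0.050), Dnmt3b in 8276OV against 8276KD (0.091) and Tet3 in the difference (0.074); and with library sums made equal Uhrf1 in 5NC against 3NC (0.0072). In the difference of effects, 3542 genes were higher and 3230 lower with quantile normalization and 3485 and 3435 with median-of-ratios factors, against 2778 and 4107 as deposited. The cause of these changes was not tested.

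Of the 7 genes, 6 were called in 5NC against 3NC with GC correction, against 3 as deposited, and 5 in 8276KD with the other control and GC correction, an alternative added after seeing the data, where 6811 genes were called in all. With a filter of at least 5, which leaves 5 of the genes tested, 1 was called in 5NC against 3NC and 2 in the difference of effects. Under that filter 5364 and 6018 of 9208 genes were called in these comparisons. Leaving out each library in turn, the genes called among the 7 numbered 4 to 5 in 8276OV against 5NC, 2 to 3 in 8276KD against 3NC, 3 to 3 in 5NC against 3NC, 3 to 5 in 8276OV against 8276KD and 4 to 5 in the difference. Over all genes these ranges were 7781 to 8652, 3428 to 5008, 5592 to 6826, 6992 to 7853 and 6286 to 7187. The sign changed for Dnmt3b in 8276OV against 8276KD without 8276KD replicate 2 (0.019) or 8276OV replicate 1 (0.054; range over libraries left out -0.053 to 0.054), and for Tet2 there without 8276OV replicate 1 (-0.043; range -0.043 to 0.083), all not called.

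Replicate numbers are shared between groups, but no label pairs the libraries. Correlations of same-numbered deviations ran between -0.18 and 0.59, and not every library correlated best with its own number. Between 8276OV and 8276KD they were 0.47, 0.59 and 0.029 for replicates 1, 2 and 3, so a structure shared by some libraries is not excluded. With the replicate number as a block, 8407 genes were called in 8276OV against 5NC (8452 without), 4434 in 8276KD against 3NC (4477), 6380 in 5NC against 3NC (6414), 7704 in 8276OV against 8276KD (7744) and 6833 in the difference (6885), and the counts among the 7 genes were 4, 3, 3, 4 and 4 with and without it. With the block and GC correction together the signs that changed were those under GC correction alone, at the same values, 6 genes were again called in 5NC against 3NC, and Mbd2 in 8276OV against 5NC became called higher (0.13), which made 4 called there, 3 of them higher.

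Depth limits Dnmt3l and Tet1, which rest on a few fragments per library, and leaves Dnmt3b and Tet2 at 93.6 to 357 fragments per library. With 3 libraries a group, differences near 0.1 on the log2 scale were mostly not called for these genes. The unit was inferred, the knockdown and overexpression were not checked, and protein and methylation were not measured.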
